A study of Mus musculus with 12 samples.

Results

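The strongest H2A.Z peaks of the saline control list that were also called after a first cocaine exposure, and were not called in either list from animals with a cocaine history, are described here. Members were chosen by the authors' fold enrichment and by overlap between lists: they were the saline peaks on chromosomes 1 to 19 whose fold enrichment over background was at least 7.5, that shared at least 1 bp with a peak of the acute cocaine list, and that shared none with a peak of the withdrawal or the challenge list. There were 2951 such peaks (60.5%) among 4874 equally strong autosomal saline peaks and 59069 peaks in the 4 lists together. They are called missing peaks below. The 1922 equally strong peaks that overlapped a withdrawal or challenge peak are called held peaks. A single strong peak, at Gm37988, overlapped none of the other lists.

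The lists come from chromatin immunoprecipitation and sequencing with an antibody to the histone variant H2A.Z in mouse nucleus accumbens. There were 4 conditions of 3 samples. Both letters of a condition's name are treatments, S for saline and C for cocaine: SS is labelled saline, SC acute, CS withdrawal and CC challenge, and the first letter is read here as the earlier treatment. Strain, genotype, sex, age, dose and interval are not given in the labels, and no sample differs from another in any labelled way but these treatments. The tissue is a mixture of neurons, glia and vessel cells, so fewer cells with a mark and less of the mark per cell cannot be told apart. Each condition is represented by 1 list without values per sample, so there is no replicate spread and no test between conditions. Intervals below are exact 95% binomial (Clopper-Pearson) intervals and carry only the error of counting peaks or genes. Sequencing depth and the total histone H3 libraries of the design were not analysed here. The SS list held 24655 peaks (median width 734 bp) and the SC list 23170 (727 bp), while the CS list had 6417 (110 bp) and the CC list 4827 (107 bp). A missing peak is therefore a site with no call in a shorter list of narrower peaks, and not a site shown to lack H2A.Z.

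H2A.Z replaces the ordinary histone H2A in nucleosomes that flank the start sites of many genes, above all at promoters rich in CpG dinucleotides. It is put in by the SRCAP and p400 remodelling complexes and taken out by factors that include INO80 and the chaperone ANP32E. In neurons its exchange at promoters has been studied in connection with activity-dependent transcription and memory. Most neurons of the nucleus accumbens are medium spiny neurons that carry either D1 or D2 dopamine receptors. The region is a main site of cocaine action.

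Promoter windows of 300 bp are given as chosen examples of start sites under these peaks. They are from RefSeq (GRCm38.p6, the assembly of mm10) and overlap the peak named with them. Each runs 5′ to 3′ on the gene's strand from 250 bases before the RefSeq start site. That site can differ from the one assigned in the peak list, as at Drd2 and Ep400. The first 5 lie under missing peaks: Nek9 and Taf10 are among the strongest, Ep400 encodes a remodeller that deposits H2A.Z, Drd2 the D2 dopamine receptor and Chrna5 a nicotinic receptor subunit. The Olfm1 pair shows a missing and a held start site of the same gene, and Ext2, a gene of heparan sulphate synthesis, had the strongest held promoter peak outside predicted gene models and clone names. Capitals mark matches, on either strand, to the letters of the motifs named in the next paragraph. No motif contains another, and matches that touch or overlap form one capital run.
Nek9, chr12:85339313-85339612, minus strand: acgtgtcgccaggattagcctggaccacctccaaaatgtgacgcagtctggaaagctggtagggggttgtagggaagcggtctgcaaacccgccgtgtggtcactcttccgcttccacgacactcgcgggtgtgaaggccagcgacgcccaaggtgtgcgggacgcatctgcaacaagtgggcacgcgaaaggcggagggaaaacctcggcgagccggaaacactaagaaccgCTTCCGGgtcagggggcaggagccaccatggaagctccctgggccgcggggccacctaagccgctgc
Taf10, chr7:105744289-105744588, minus strand: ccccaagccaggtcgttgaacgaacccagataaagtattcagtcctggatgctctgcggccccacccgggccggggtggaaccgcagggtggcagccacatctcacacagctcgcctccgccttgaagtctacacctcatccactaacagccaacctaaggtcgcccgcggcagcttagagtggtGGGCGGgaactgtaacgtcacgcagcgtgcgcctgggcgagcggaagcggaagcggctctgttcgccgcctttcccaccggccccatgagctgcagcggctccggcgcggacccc
Ep400, chr5:110770668-110770967, minus strand: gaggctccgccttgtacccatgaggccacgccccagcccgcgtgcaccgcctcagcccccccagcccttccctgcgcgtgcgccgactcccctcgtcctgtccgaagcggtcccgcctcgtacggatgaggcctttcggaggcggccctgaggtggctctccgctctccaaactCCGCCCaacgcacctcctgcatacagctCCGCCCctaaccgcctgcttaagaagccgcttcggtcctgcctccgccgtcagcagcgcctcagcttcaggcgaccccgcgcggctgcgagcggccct
Drd2, chr9:49340153-49340452, plus strand: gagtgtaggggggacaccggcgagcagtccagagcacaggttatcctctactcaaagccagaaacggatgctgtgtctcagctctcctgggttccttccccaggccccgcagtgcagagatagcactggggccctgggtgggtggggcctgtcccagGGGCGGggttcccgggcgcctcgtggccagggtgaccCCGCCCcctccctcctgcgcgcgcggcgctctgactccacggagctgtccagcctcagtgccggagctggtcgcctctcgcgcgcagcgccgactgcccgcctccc
Chrna5, chr9:54981238-54981537, plus strand: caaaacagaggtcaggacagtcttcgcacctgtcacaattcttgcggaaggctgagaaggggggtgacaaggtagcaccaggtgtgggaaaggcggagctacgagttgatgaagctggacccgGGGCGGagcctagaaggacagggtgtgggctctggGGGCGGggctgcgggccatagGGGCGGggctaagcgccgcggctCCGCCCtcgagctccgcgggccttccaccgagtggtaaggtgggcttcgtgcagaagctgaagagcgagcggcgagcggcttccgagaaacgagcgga
Olfm1, missing start site, chr2:28205439-28205738, plus strand: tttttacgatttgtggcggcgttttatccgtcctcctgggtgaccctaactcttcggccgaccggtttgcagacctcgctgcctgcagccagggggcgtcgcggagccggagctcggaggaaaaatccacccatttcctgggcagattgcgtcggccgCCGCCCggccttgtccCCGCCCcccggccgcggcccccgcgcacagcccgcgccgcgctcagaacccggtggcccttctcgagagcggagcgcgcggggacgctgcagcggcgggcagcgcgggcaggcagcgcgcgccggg
Olfm1, held start site, chr2:28192843-28193142, plus strand: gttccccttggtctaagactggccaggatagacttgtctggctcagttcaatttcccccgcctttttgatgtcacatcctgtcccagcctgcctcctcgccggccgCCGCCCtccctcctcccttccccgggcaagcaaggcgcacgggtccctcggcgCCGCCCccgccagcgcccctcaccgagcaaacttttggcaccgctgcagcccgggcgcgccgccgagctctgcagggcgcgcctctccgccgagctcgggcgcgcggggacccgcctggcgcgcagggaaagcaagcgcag
Ext2, held, chr2:93822519-93822818, minus strand: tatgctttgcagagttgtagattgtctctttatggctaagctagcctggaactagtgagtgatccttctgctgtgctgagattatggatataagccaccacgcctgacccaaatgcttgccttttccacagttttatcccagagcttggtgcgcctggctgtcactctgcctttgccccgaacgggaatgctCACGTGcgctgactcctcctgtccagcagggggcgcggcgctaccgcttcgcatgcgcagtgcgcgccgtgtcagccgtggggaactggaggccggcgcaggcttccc

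The 7 windows other than that of Ext2 had more CpG dinucleotides than the upper quartile of all promoter windows. The count of CpG dinucleotides was 25 in Nek9, 27 in Taf10, 33 in Ep400, 23 in Drd2, 25 in Chrna5, 43 at the missing and 32 at the held start site of Olfm1, and 18 in Ext2. The median over all 32851 promoter windows of the table was 7, with an upper quartile of 20. GGGCGG, the core of the GC box read by Sp and Klf factors, was present in Taf10 (1 match), Ep400 (2), Drd2 (2), Chrna5 (4) and both Olfm1 windows (2 each), and in 35.7% of all windows. CCGGAAG, an ETS-type string, stood in Nek9 and in 8.86% of all windows. The E-box CACGTG stood in Ext2 and in 7.15% of all windows. The other motifs searched had no match in these 8 windows. Of all windows, 37.4% held the CCAAT box, 13.6% the TATA string TATAAA, and 7.81% the AP-1 string TGANTCA. The CRE palindrome TGACGTCA stood in 1.79% and the YY1 string AAGATGGCG in 1.40%. Longer motifs, given by name alone, were the NRF1 palindrome (0.971% of all windows), the ZBTB33 palindrome (0.466%) and the ZNF143 motif (0.286%). A match describes the letters of a window and does not show that a factor was bound. A comparison of base composition or motifs between all missing and all held promoters was void, because only 68.7% of the missing and 73.8% of the held promoter peaks had a window of their gene in the table.

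Missing peaks made up 60.5% of the strong autosomal SS peaks (59.2 to 61.9%). Over all autosomal SS peaks, weak and strong, the corresponding share was 49.3%. Both shares follow from the rule and are descriptions. The threshold of 7.5 divides a continuous range: Phf3 (7.51), Sbk1 (7.51) and Zfp787 (7.51) lay just inside it, and Fras1 (7.496), Trio (7.49) and Twf1 (7.49), with the same overlaps, just outside. Of the autosomal SS peaks under the threshold, 69.5% overlapped SC and 24.8% overlapped CS or CC, and 46.4% had the same pattern of overlaps as the missing peaks. Among strong peaks 4872 of 4874 overlapped SC, so the condition on SC removed almost nothing there, whereas it removed many weaker peaks. Of the SS peaks that overlapped SC, 2951 of 4872 strong ones and 8969 of 13423 under the threshold overlapped neither CS nor CC. Among peaks with an SC overlap the missing share was therefore lower for strong peaks than for weaker ones.

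In SS the fold enrichment of the missing peaks ran from 7.51 to 15.8, with a median of 9.55 (quartiles 8.57 and 10.7). The held peaks had a median of 9.86 (8.83 and 10.9) and reached 16.8. The strongest missing promoter peak was that of Nek9, a kinase of mitotic spindle assembly, at 15.8 in SS and 15.5 in SC (chromosome 12, 85338777 to 85339628). Leaving out predicted gene models and clone names, it was followed by Rab24, a small GTPase linked to autophagy (15.0 in SS, 14.3 in SC), and by the TFIID subunit gene Taf10 (14.9 and 14.3). Next came Selenoi, which makes phosphatidylethanolamine (14.8 and 15.5), and Actr2, which encodes the ARP2 subunit of the actin-nucleating ARP2/3 complex (14.6 and 14.6). Casc3 of the exon junction complex had 14.5 and 13.6. Ep400 had 14.4 and 14.6, Zc3h18 14.3 and 15.4, and the endocytic adaptor gene Epn1 14.3 and 14.4. Fbxo6, which encodes a ubiquitin ligase subunit that recognises glycoproteins, had 14.3 and 13.1, the cornichon gene Cnih4 14.2 and 15.2, and Mxra7 14.1 and 15.5. Fold enrichment was computed list by list, so these pairs show that a site was strong in both lists and not that it changed.

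The missing peaks were strong in the SC list as well. Their SC fold enrichment had a median of 11.7 (quartiles 10.3 and 13.2), where the median of all SC peaks was 4.66. In all, 96.9% of the missing and 97.5% of the held peaks reached the upper quartile of the SC list, 8.34. The lowest SC value of a missing peak was 5.04, and the highest, 20.8, belonged to Gm336 on chromosome 19 (15.4 in SS), a gene singled out after its values were seen. Held peaks had a median SC fold of 12.03. Weighted to the SS bands of the missing peaks, the held median was 11.7.

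**Figure D1:**
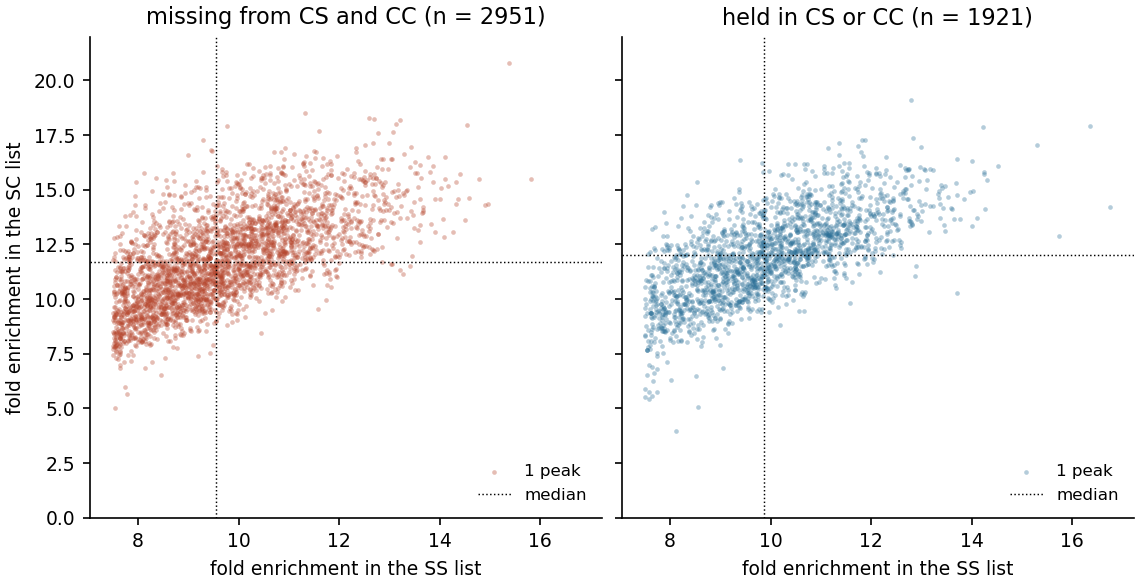
Fold enrichment of each strong autosomal SS peak in the SS list (x axis) and of the strongest overlapping peak in the SC list (y axis), for missing peaks (left) and held peaks (right); dotted lines are medians. The clouds cover much the same range, with medians of 9.55 in SS and 11.7 in SC for missing peaks.

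Width set the classes further apart than strength did. Missing peaks had a median SS width of 1011 bp (quartiles 839 and 1179) and held peaks 1157 bp (1018 and 1288). In SC the corresponding medians were 941 and 1043 bp. Of strong SS peaks up to 800 bp wide, 85.0% were missing (82.1 to 87.6%). The share was 71.5% above 800 and up to 1000 bp, 56.3% up to 1200 bp, 45.0% up to 1400 bp and 44.1% above 1400 bp (39.2 to 49.1%). Widths and overlaps come from the same calls that chose the members, and a wider peak offers more sequence to be overlapped, so this is a description. The part of width in the other differences was examined only where values within width bands are given.

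By SS fold, 65.0% of peaks from 7.5 to 9 were missing (62.6 to 67.3%), 59.8% of those from 9 to 11 (57.7 to 61.9%) and 55.2% of those of 11 and above (52.2 to 58.3%). In finer steps the lowest share was 53.3% between 11 and 12. It was 63.7% between 13 and 14 (53.0 to 73.6%), an interval that includes the share over all strong peaks. Within every strength band, narrow peaks were missing more often than those between 1200 and 1400 bp. At 11 and above the share fell from 77.8% of 167 peaks up to 800 bp to 33.1% of 136 peaks between 1200 and 1400 bp.

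**Figure D2:**
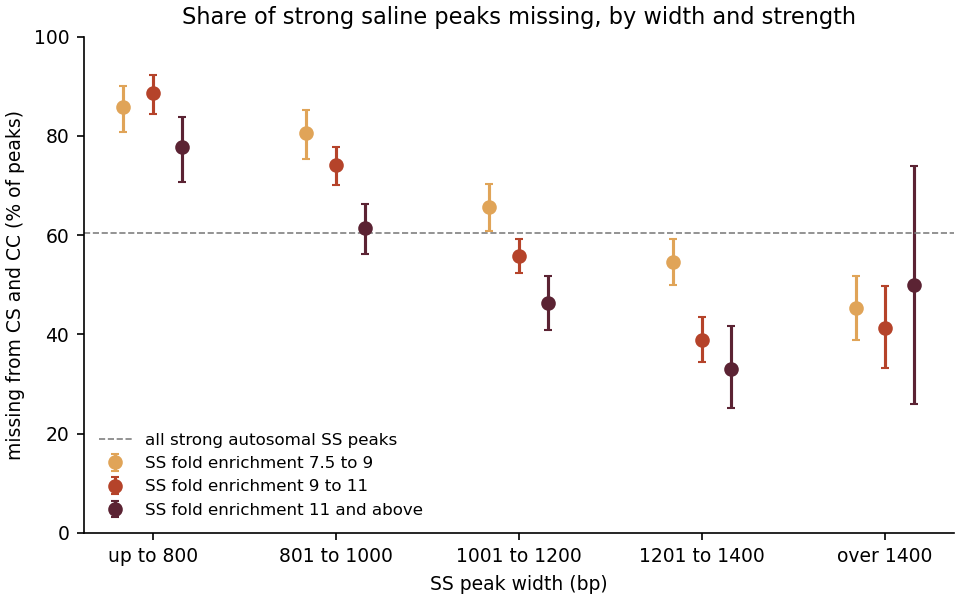
Share of strong autosomal SS peaks that were missing from CS and CC (y axis, %) by SS peak width (x axis, bp) and SS fold enrichment (colours); bars are exact 95% intervals and the dashed line is the share over all strong peaks, 60.5%. Shares are highest for peaks up to 800 bp and lie below the line between 1200 and 1400 bp in each colour; the darkest point above 1400 bp rests on 18 peaks.

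Held peaks were held by a small part of their length. Taking the strongest overlapping peak of each list, the wider of them measured 10.4% of the SS peak (median, quartiles 7.61 and 14.5%). Over all 2486 such CS and CC peaks, the middle lay a median of 283 bp from the middle of the SS peak. Of the 1922 held peaks, 799 overlapped CS alone, 559 CC alone and 564 both.

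Most missing peaks lay at promoters, as did held peaks. The middle of the peak was within 1000 bp of the assigned start site in 93.2% of missing peaks (92.2 to 94.1%) and 95.01% of held peaks (93.9 to 95.9%). Closer in, the classes differed more: 48.9% of missing peaks (47.1 to 50.8%) and 59.3% of held peaks (57.1 to 61.5%) were centred within 100 bp of the start site. Between 100 and 300 bp downstream lay 25.7% of missing and 20.8% of held peaks, and over 100 bp upstream 9.79 and 9.73%. The median position was 53 bp downstream for missing and 24 bp downstream for held peaks. Protein-coding genes were assigned to 91.7% of missing and 93.1% of held peaks.

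**Figure D3:**
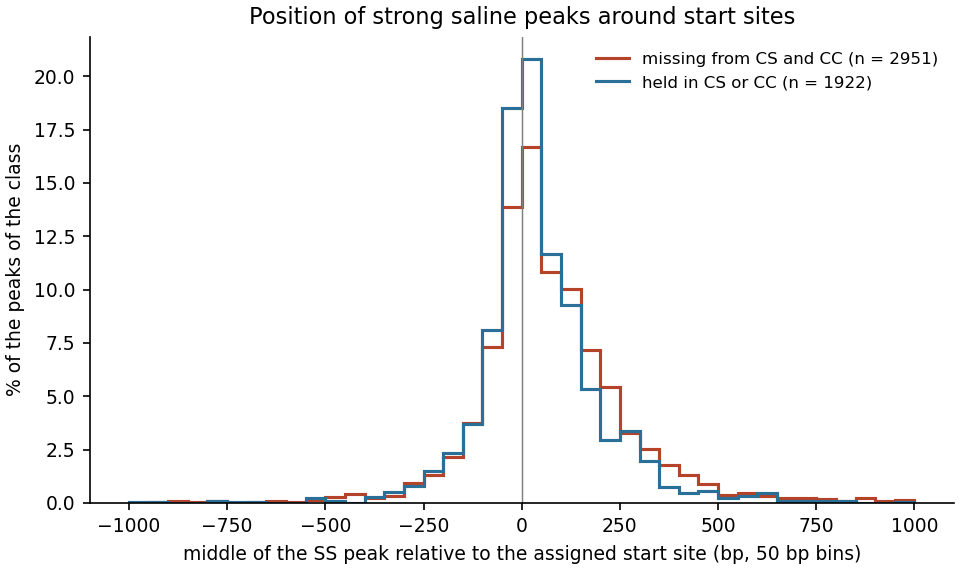
Position of the middle of strong SS peaks relative to the assigned start site (x axis, bp, in 50 bp bins; positive is downstream), as a percentage of the 2951 missing and 1922 held peaks (y axis). The held curve is higher within 100 bp of the start site (59.3 against 48.9% of peaks) and the missing curve is higher from 100 to 300 bp downstream.

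Peaks away from promoters were few. The authors' region class was gene body for 93 missing peaks (3.15%, 2.55 to 3.85%) and 38 held peaks (1.98%, 1.40 to 2.70%). The strongest missing peak in a gene body lay in Gata4, a GATA transcription factor of heart and gut development (14.1 in SS, 16.5 in SC, 15210 bp into the gene). Srcin1, which encodes an inhibitor of Src kinase at synapses, followed with 13.3 and 11.2, then Fbrsl1 with 13.3 and 14.9 and the oxysterol-binding protein gene Osbp2 with 13.03 and 13.5. Intergenic missing peaks without an assigned gene numbered 58 (1.97%), against 34 held (1.77%). The strongest of them spanned chromosome 19, 44725926 to 44726621, at 14.5 in SS and 17.98 in SC. Long intergenic RNA genes were assigned to 35 missing (1.19%) and 11 held peaks (0.572%), and microRNA genes to 13 and 14. Mir155hg, the host transcript of miR-155, had a missing peak of 10.9 in SS and 16.1 in SC; it was not the strongest noncoding member, and was named after its values were seen.

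A strong SS promoter peak was present at 4516 genes, of which 2712 (60.1%) had a missing one. Gene lists are read against that share. In all, 1052 of these genes stood in at least 1 of 38 lists, and 22 lists held 10 or more strong genes. Of these 22 lists, 10 lay above 60.1%, and the intervals of 3 lay wholly above it: developmental transcription factors, ion channels and protein kinases. No interval lay wholly below. Each list with fewer than 10 strong genes, where it had any, had an interval that includes 60.1%. Because promoters of some lists had narrower SS peaks (median over all strong promoter genes 1089 bp, and median fold 9.69), each share is also set beside that of all strong promoter genes in the same bands of fold and width. Lists were drawn by symbol, so a few genes of similar name but other function are counted in them, such as Fgfr1op among ligands and receptors and Trpc4ap among channels.

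**Figure D4:**
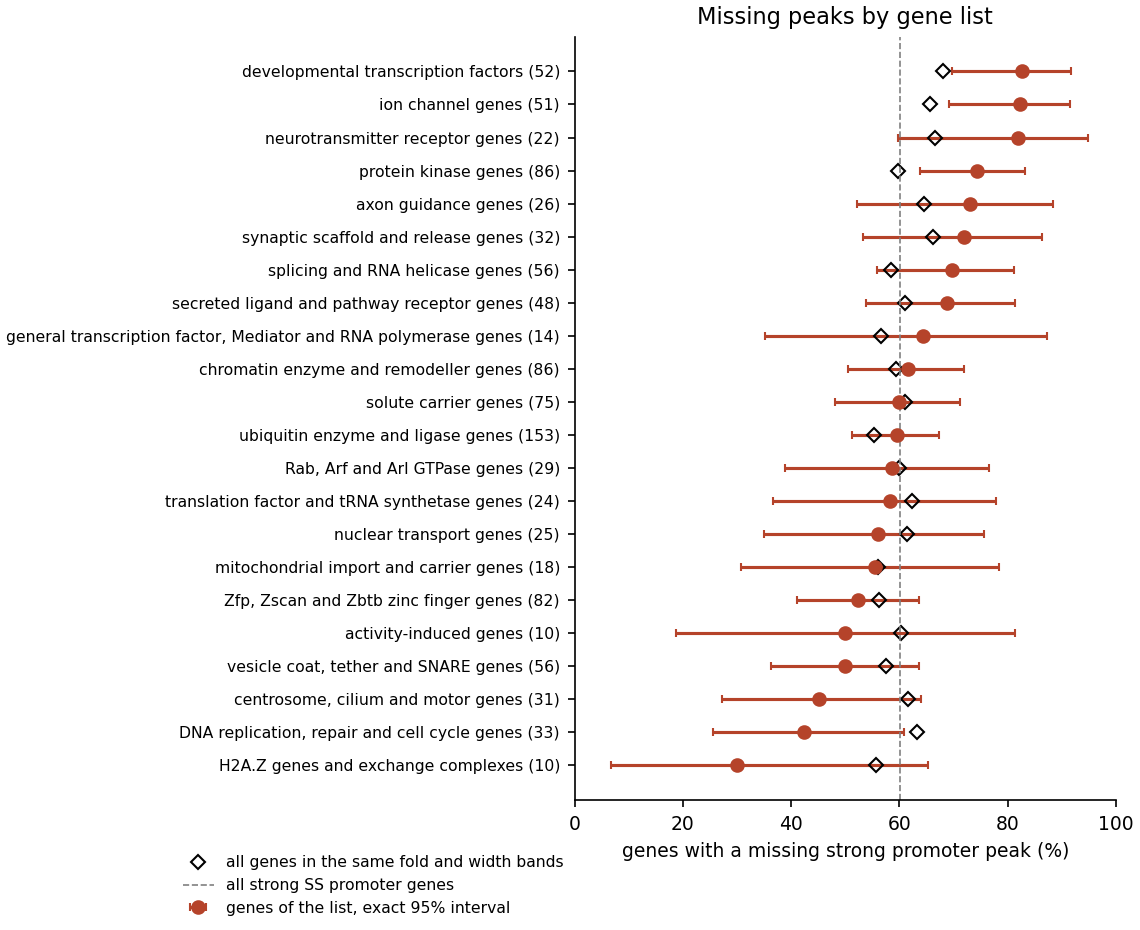
Share of genes with a strong SS promoter peak that had a missing one (x axis, %), for the 22 lists with at least 10 such genes (number in brackets); circles with bars are the list and its exact 95% interval, diamonds are all genes in the same bands of SS fold and width, and the dashed line is the share over all strong promoter genes, 60.1%. Developmental transcription factors (82.7%) and ion channels (82.4%) are at the top, and genes of H2A.Z and its exchange (30.0%) at the bottom.

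Among transcription regulators, developmental factors had a missing peak at 43 of 52 genes, 82.7% (69.7 to 91.8%). Genes of the same fold and width gave 68.0%. Median fold was 9.18 and median width 974 bp. The strongest were Lhx8, a LIM homeobox gene of forebrain cholinergic neurons (11.5 in SS, 14.7 in SC), the T-box gene Tbx18 (11.3 and 15.2) and Heyl, a target of Notch signalling (11.3 and 16.3). Sox30 was the strongest held gene (10.4). Zinc finger genes of the Zfp, Zscan and Zbtb families had a missing peak at 43 of 82 genes, 52.4% (41.1 to 63.6%), led by Zfp553 (13.1 and 11.6), Zfp384 (12.7 and 12.2) and Zfp316 (12.5 and 12.99), while Zfp638 (13.3) was held. General transcription factor, Mediator and RNA polymerase genes were missing at 9 of 14, among them Taf10, Gtf2a2 (13.9 and 15.3), which encodes a subunit of TFIIA, and the polymerase III subunit gene Polr3e (11.3 in SS). Activity-induced genes were missing at 5 of 10, all 5 of them among the 7 genes in the band 7.5 to 9 and none among the 3 of 9 and above. These included Ier5 (8.79 and 12.4), the CREB-family gene Crem (8.49 and 10.7) and the synaptic pentraxin gene Nptx2 (8.38 and 11.96). Plk3 was held in both CS and CC (11.2 in SS). Of these 4 lists, only the developmental one had an interval that lay above both the overall share and the share for its fold and width.

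Chromatin genes were near the overall share, with a missing peak at 53 of 86, 61.6% (50.5 to 71.9%). After Ep400 the strongest were Kdm3b, a histone H3 lysine 9 demethylase gene (12.2 and 12.6), and Pcgf3, a Polycomb group RING finger gene (12.01 and 14.7). Its relative Pcgf6 was held (13.1 in SS). Of 10 genes of H2A.Z itself and its exchange complexes, 3 were missing (30.0%, 6.67 to 65.2%), and genes of the same fold and width gave 55.6%. Besides Ep400 these were Actr5, which encodes the ARP5 subunit of INO80 (13.2 and 15.2), and Mrgbp of the TIP60-p400 complex (9.15 and 10.2). By strength, the share of this list was 0% of 2 genes from 7.5 to 9 and 16.7% of 6 from 9 to 11. At 11 and above it was 100% of 2, where all genes gave 55.1%. The gene of the H2A.Z chaperone, Anp32e, was held by a CS peak (10.9 in SS). Histone genes were missing at 2 of 6, namely H3f3a, a gene of the replacement histone H3.3 (9.55 and 11.5), and H1f0, a linker histone gene (8.40 and 10.4). H2afv, a gene of H2A.Z itself, was held (10.3) in CC.

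Neuronal lists lay above the overall share at the threshold of 7.5. Ion channel genes had a missing peak at 42 of 51, 82.4% (69.1 to 91.6%), and genes of the same fold and width gave 65.7%. The strongest were the cation channel genes Trpc1 (13.6 in SS, 15.1 in SC) and Trpv4 (11.9 and 12.8). Trpc1 had a CS peak 78 bp beyond the edge of its SS peak. Kcnk6, a potassium channel gene, was held (12.3). Neurotransmitter receptor genes were missing at 18 of 22, 81.8% (59.7 to 94.8%), with 66.6% for genes of the same fold and width. They were led by the nicotinic subunit genes Chrna5 (13.1 and 17.7, chromosome 9, 54981252 to 54982112) and Chrna4 (12.5 and 15.3) and by the NMDA receptor subunit gene Grin3b (12.2 and 12.02). The serotonin receptor gene Htr1d was held in CC (11.3).

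Synaptic scaffold and release genes were missing at 23 of 32, 71.9% (53.3 to 86.3%), with 66.1% for genes of the same fold and width. In the band 7.5 to 9 their share was 61.5% of 13 genes, below the 64.4% of all genes. Syt16 (11.7 and 13.7), the calcium sensor gene Syt2 (11.5 and 15.9) and the scaffold gene Homer3 (11.4 and 12.2) led, and the release factor gene Unc13b was held in CC (11.9). Axon guidance genes were missing at 19 of 26, 73.1% (52.2 to 88.4%), with 64.5% for genes of the same fold and width. These included the Eph receptor gene Ephb3 (12.9 and 16.0) and the netrin genes Ntn4 (10.8 and 12.4) and Ntn1 (10.5 and 15.7), while Sema3c was held in CS (11.8). At a threshold of 10 the axon guidance share was 44.4% of 9 genes, below the 56.0% of all genes at that threshold, and at 11 and above it was 25% of 4. Cadherin and protocadherin genes were missing at 4 of 6, among them Cdh24 (11.1 and 14.1), Cdh4 (9.27 and 10.4) and Celsr1 (8.30 and 9.40). Intervals of the synaptic and guidance lists, like that of the neurotransmitter receptor list, include the overall 60.1%.

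Few cell type markers had an SS peak above the threshold. Of markers of D1 neurons, Sfxn1 (10.7 in SS, 13.01 in SC), the LIM homeobox gene Isl1 (9.24 and 12.9) and Ebf1 (8.53 and 14.4) had missing promoter peaks. Of D2 markers, Drd2 (10.9 and 13.6; chromosome 9, 49340153 to 49340932) and the opioid peptide gene Penk (7.65 and 11.4) did. The nearest CS or CC peaks of Drd2 and Penk lay 284185 and 200201 bp away. Of markers shared by medium spiny neurons, Foxp1 (10.8 and 11.5) and the adenylyl cyclase gene Adcy5 (7.63 and 6.86) were missing at the promoter. Gnal, which encodes the G protein that couples D1 receptors to adenylyl cyclase, was held by a CC peak (11.2 in SS, 5.38 in CC). Interneuron genes gave the missing peaks of Lhx8 and Pvalb (7.84 and 11.8). The counts of 3 of 3 D1, 2 of 2 D2 and 2 of 2 interneuron genes stand beside 84.2, 89.2 and 85.3% for all genes of the same fold and width. For shared medium spiny neuron markers 2 of 3 stand beside 67.0%, and for oligodendrocyte markers 0 of 1 beside 81.7%. An SS promoter peak of any strength was present at 7 D1, 4 D2, 10 shared and 9 interneuron markers. The astrocytic glutamate transporter gene Slc1a2 had a missing peak (9.40 and 12.7). Of oligodendrocyte-lineage genes, Olig1 was held in CC (7.68), and Olig2 had a missing peak 1505 bp from its start site (7.97 and 9.94). Markers of microglia and endothelium had no strong SS promoter peak. Each missing marker peak named here was narrower than the median missing peak of 1011 bp: Ebf1 measured 577 bp, Pvalb 616, Isl1 726, Penk 734 and Drd2 779 bp, and the widest, Adcy5, 994 bp.

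Protein kinase genes had a missing peak at 64 of 86, 74.4% (63.9 to 83.2%). Their median width of 1126 bp was close to that of all genes, and genes of the same fold and width gave 59.8%. After Nek9 the strongest were Cdk8, the kinase of the Mediator complex (12.3 and 14.1), and Ulk1, which starts autophagy (12.2 and 15.1). Map3k7, the TAK1 kinase gene, was held in both CS and CC (13.7). Genes of secreted ligands and pathway receptors were missing at 33 of 48, 68.8% (53.7 to 81.3%). The growth factor gene Fgf2 (11.7 and 14.9) was among the strongest, and Lrp10 (12.7) was held. Smad9 (11.9 and 14.4), also among the strongest, is counted in this list but encodes neither a ligand nor a receptor.

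Trafficking lists lay below the share of all strong promoter genes at the threshold of 7.5, some of them not at other strengths. Rab, Arf and Arl genes were missing at 17 of 29, 58.6% (38.9 to 76.5%). At a threshold of 10 the Rab, Arf and Arl share was 68.8% of 16 genes, above the 56.0% of all genes there, and at 11 and above it was 85.7% of 7. Rab24 and Rab2a, which acts between endoplasmic reticulum and Golgi (11.99 and 11.7), were among the strongest. Vesicle coat, tether and SNARE genes were missing at 28 of 56 (36.3 to 63.7%), and at 70% of 20 genes in the band 7.5 to 9, above the 64.4% of all genes in that band. They had Epn1, the SNARE gene Vamp3 (12.9 and 14.4) and the exocyst gene Exoc5 (11.04 and 11.8) missing and Tmed7 (13.1) held. Nuclear transport genes were missing at 14 of 25, including the pore genes Nup50 (13.6 and 15.5) and Nup210 (10.7 and 12.1) and the import receptor gene Tnpo1 (10.8 and 10.7), and Xpo4 (13.8) was held. Solute carrier genes lay at the overall share, with 45 of 75 missing (60.0%, 48.0 to 71.1%). They included the fatty acid transporter gene Slc27a4 (12.9 and 14.7), the GABA transporter gene Slc6a11 (12.6 and 15.5) and the synaptic vesicle amino acid transporter gene Slc6a17 (11.8 and 13.1).

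Genes of RNA handling were mixed. Splicing and RNA helicase genes were missing at 39 of 56, 69.6% (55.9 to 81.2%), with Casc3, the SR protein gene Srsf9 (12.6 and 13.1) and Rbm17 (12.5 and 15.6) leading and Prpf39 (12.9) held. Translation factor and tRNA synthetase genes were missing at 14 of 24. Eif3f (12.8 and 16.0), Eif5 (11.01 and 10.6) and Eif4g2 (10.6 and 11.5) led them, and Eif4e2 (12.6) was held. Eif4g2 had a CS peak 733 bp from its SS peak. Cytosolic ribosomal protein genes were missing at 5 of 9, led by Rpsa (13.4 and 11.5), Rps3a1 (10.8 and 12.8) and Rps6 (9.21 and 12.3), and Rpl32 (12.6) was held. Rps3a1 had a CS peak 274 bp from its SS peak.

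Ubiquitin enzymes and ligases were the list with the most strong promoter genes, of which 91 of 153 were missing (59.5%, 51.3 to 67.3%). Genes of the same fold and width gave 55.3%. Fbxo6, the RING ligase gene Trim3 (13.2 and 13.7) and the deubiquitinase gene Otud3 (12.9 and 15.2) were its strongest missing genes, and Fbxo4 (13.4) its strongest held gene. Autophagy and vacuolar ATPase genes were missing at 8 of 9, 88.9% (51.8 to 99.7%), an interval that includes the 60.1% of all strong promoter genes. Genes of the same fold and width gave 58.3%. The missing ones included the proton pump gene Atp6v1h (12.5 and 14.3), Atg2b (11.4 and 12.8) and Map1lc3a, which encodes an LC3 protein (10.5 and 12.3). The lysosomal membrane protein gene Lamp1 (12.2) was held in CS. Both proteasome genes with a strong peak were missing (15.8 to 100%), where genes of the same fold and width gave 50.1%. Mitochondrial lists were small. Ribosomal protein genes of mitochondria were missing at 5 of 7 (29.0 to 96.3%), with Mrps24 at 12.1 and 15.8 and Mrps7 at 10.9 and 11.1. Import and carrier genes were missing at 10 of 18 (30.8 to 78.5%), led by Tomm22 of the outer membrane translocase (11.7 and 11.7). Respiratory chain genes were missing at 3 of 8 (8.52 to 75.5%), namely Cox4i1 (10.3 and 10.2), Atp5j (9.29 and 10.1) and Ndufv2 (8.63 and 9.03). Cyc1 (10.5) was held in CS.

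At the threshold of 7.5, the lowest shares among lists of over 30 strong genes belonged to cell division and the centrosome. DNA replication, repair and cell cycle genes were missing at 14 of 33, 42.4% (25.5 to 60.8%), and genes of the same fold and width gave 63.3%. Fance of the Fanconi anaemia pathway (12.4 and 13.4) and the phosphatase gene Cdc14b (11.5 and 15.4) were the strongest missing genes, and Topbp1 (14.5), a checkpoint gene, was held in CS. Centrosome, cilium and motor genes were missing at 14 of 31, 45.2% (27.3 to 64.0%), with the kinesin genes Kif1c (13.3 and 14.8), Kif17 (12.2 and 12.7) and Kif27 (12.1 and 15.4) missing and Cep131 (13.9) held. The centrosome share turned with strength: it was 72.7% of 11 genes in the band 7.5 to 9, above the 64.4% of all genes, 16.7% of 12 from 9 to 11, and 25% of 16 at a threshold of 10. At the threshold of 7.5 the intervals of both lists include the overall 60.1%. Against genes of the same fold and width, the replication interval (25.5 to 60.8%) lies below the 63.3%. The centrosome interval (27.3 to 64.0%) includes the 61.5% of such genes.

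A few genes carried strong SS peaks at more than 1 start site with different fates. At 17 genes 1 strong promoter peak was missing and another was held. The missing peak was the narrower of the pair in 12 of 17 genes and had the lower SS fold in 9 of 17. It lay at the downstream start site in 13 of 17, and the middles of the pair were a median of 60.2 kb apart. Median widths were 940 bp for the missing and 1280 bp for the held peak. Sh2b3, an adaptor gene of cytokine signalling, had a missing peak of 756 bp at 12.7 in SS and a held peak of 1280 bp at 8.07. Olfm1, a gene of a secreted brain glycoprotein, had a missing peak at 12.1 and a held peak at 10.3, with widths of 940 and 936 bp. At Foxn3 the missing peak had 10.9 (934 bp) and the held peak 10.2 (1382 bp). The Polycomb gene Pcgf5 had 10.5 (1065 bp) and 8.94 (1327 bp), and Dlgap4, a postsynaptic scaffold gene, 8.40 (1262 bp) and 9.61 (1130 bp). These genes were chosen for the contrast, and their values are a description.

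**Figure D5:**
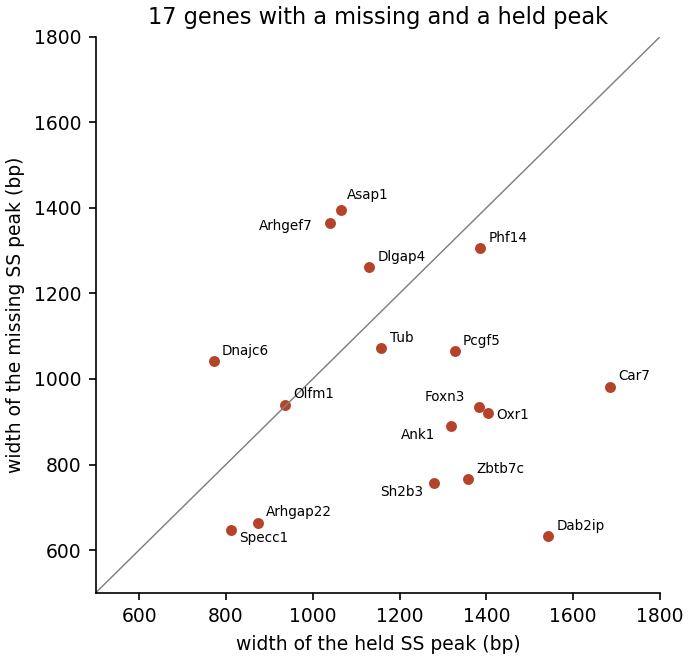
Width of the held (x axis, bp) and of the missing (y axis, bp) SS promoter peak at the 17 genes that had both; the line marks equal widths. Of the genes, 12 lie below the line, Dab2ip farthest (633 against 1543 bp).

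Missing peaks were far from any CS or CC peak in most cases. The nearest one was a median of 70415 bp away (quartiles 29272.5 and 163672 bp). Held peaks were a median of 61931.5 bp from the nearest CS or CC peak that did not overlap them. A CS or CC peak stood within 1000 bp of 126 missing peaks (4.27%, 3.57 to 5.06%) and within 10000 bp of 280 (9.49%). Smg1, a kinase gene of nonsense-mediated decay, had a CS peak that touched its SS peak without sharing a base. Hnrnpa0, Paxip1 and Coro2a had one at 7, 9 and 10 bp. At the other extreme Zeb2, a zinc finger homeobox gene of neural development, was 4340754 bp from the nearest one, and Gtdc1 beside it 4523371 bp. Of the 2712 genes with a missing promoter peak, 157 (5.79%, 4.94 to 6.74%) carried a CS or CC promoter peak of the same name. That match was by name alone, so such a peak may lie close beside the missing one or at another start site. The other 2555 had none by name in either list.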

How the data were processed

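H2A.Z chromatin immunoprecipitation libraries of 12 samples (4 conditions of 3) were represented by 1 annotated peak list per condition. Per the submitters' processing notes, cutadapt, HISAT, SAMtools, MACS2 and the mm10 build were used. Versions, settings, the control library and whether samples were pooled were not stated there. The deposited fold enrichment, a ratio over background, and the q-value of each peak are the authors' own, per the file headers. The signed distance to a start site, the region class and the gene are also the authors' deposited values. They are used to describe and filter peaks within a list.

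Overlaps of at least 1 bp were computed in Python 3.11.15 with pandas 2.3.3, tested on simulated intervals and checked with bedtools 2.31.1. Promoter peaks had their middle within 1000 bp of the start site. Exact binomial intervals (SciPy 1.17.1) cover counting only. No p-value was computed, since no list has values per sample, and replicates could not be compared. Members and gene lists were chosen with earlier results of these data known. Named genes, leaving out predicted models, clone names and pseudogenes, were the 12 strongest missing and 8 strongest held promoter peaks, the 3 strongest missing genes and the strongest held gene of each list, the 4 strongest gene body and intergenic peaks, the peaks nearest the threshold, the marker genes, and the 4 peaks nearest to and farthest from CS or CC peaks. Genes with both kinds of promoter peak, Gm336 and Mir155hg were named after their values were seen. Alternatives were other thresholds, overlap rules, CS and CC filters, promoter windows and strength bands. Some named genes are not reported here. The share of all genes in the same fold and width bands was added after seeing the data.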

Additional observations from a re-analysis of the deposited data

How the results depend on the processing

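No paired analysis was possible because each condition has 1 list with no values per sample, and for the same reason no replicate could be left out. The missing share of strong peaks (60.5%) was 58.1, 58.4 and 56.5% at fold thresholds of 6, 9 and 10, and 58.0% with CS or CC peaks within 1000 bp counted as overlaps. It was 92.7% against CS and CC peaks with a −log10 q of at least 5, 75.7% against their stronger 50%, 72.0% against CS alone and 76.9% against CC alone. The number of missing peaks thus depends on how strictly CS and CC peaks are called. Within 500 bp of a start site lay 90.4% of missing and 93.1% of held peaks. The median width of missing peaks was 985 and 955 bp at thresholds of 9 and 10, and 1080.5 and 940 bp in the bands 7.5 to 9 and 11 and above. For held peaks it was 1128 and 1094 bp, 1248 and 1051 bp, 1144.5 bp with the 1000 bp rule and 1170 bp when weighted to the strength bands of missing peaks. The median position of missing peaks was 62.5 bp at a threshold of 10, 35 bp in the band 7.5 to 9 and 63 bp from 9 to 11. For held peaks it was 16 bp from 7.5 to 9 and 41 bp at 11 and above. Gene body shares of missing peaks were 2.29% from 7.5 to 9 and 4.36% at 11 and above, and intergenic shares 2.55% from 9 to 11 and 1.39% at 11 and above. The median SC fold of missing peaks was 12.5 and 13.2 at thresholds of 9 and 10, and 10.2, 11.99 and 13.7 in the bands from low to high. For held peaks it was 12.6 and 13.1 at these thresholds, 10.3 from 7.5 to 9, 13.6 at 11 and above, and 11.7 when weighted. The share over all promoter genes was 57.9% and 56.0% at thresholds of 9 and 10, 57.3% with the 1000 bp rule, 64.4% from 7.5 to 9, 55.1% at 11 and above, and 56.6% when genes with a CS or CC promoter peak of the same name were not counted as missing. Of 22 gene lists, 14 changed side against the share of all genes under at least 1 of 8 alternatives, with 27 changes in all, 25 of them at other thresholds or in strength bands. Among them, splicing genes lay below it at 11 and above (42.9% of 14 genes), and ubiquitin genes lay above it at thresholds of 9 (61.3%) and 10 (59.6%). The 8 that kept their side were developmental factors, ion channels, kinases, neurotransmitter receptors and secreted ligands and receptors (above), and zinc finger, nuclear transport and replication genes (below). The cause of these shifts was not tested.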

Other observations

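Missing peaks were spread over all autosomes. Their share of strong peaks ran from 50.3% on chromosome 16 (78 of 155; 42.2 to 58.4%) to 67.4% on chromosome 15 (149 of 221; 60.8 to 73.6%). Along a chromosome, the next strong peak after a missing one was also missing in 62.0% of cases (1823 of 2941), and the next one after a held peak was missing in 58.5% (1119 of 1913).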
